A study of Mus musculus with 8 samples.

Results

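The genes described here are the expressed numbered Zfp genes of mouse macrophages, whose symbols are Zfp followed by digits only. Of 15946 genes named on the array, 227 had such a symbol, and 129 of these were kept because the mean intensity of their brightest probe over the 8 arrays was above 139.5, the median of all probes. The members were thus chosen by level, averaged over both treatment states, and their levels are given as a description without a test. The other 98 numbered Zfp genes fell at or under that intensity.

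The cells were peritoneal macrophages elicited with thioglycollate in C57BL/6 mice, and their RNA was hybridised to 8 Illumina arrays. One siRNA targeted MLL (siMLL), another targeted GABP (siGABP), and the control siRNA was a scrambled one (siCtrl). Each was used in untreated cells and in cells given Kdo2 lipid A (KLA), which activates Toll-like receptor 4, for 6 h. There were 3 arrays of siMLL untreated cells, while siCtrl untreated, siCtrl KLA, siMLL KLA, siGABP untreated and siGABP KLA had 1 array each. All cells had therefore been given an siRNA. The labels name neither the MLL gene nor the GABP subunit that was targeted, and they do not say whether the 3 siMLL arrays came from separate animals or cultures, so the p-values measure only the spread between these arrays, which may be technical.

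Most genes named Zfp with a number encode proteins with zinc fingers of the C2H2 type, small folds held by a zinc ion that usually contact DNA. Many also carry a KRAB domain, which recruits the corepressor Trim28 and through it enzymes that deposit repressive histone and DNA methylation, and such genes arose by repeated duplication and often lie side by side. The name is no proof of function, and some members bind RNA, mark stalled ribosomes or belong to chromatin complexes.

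The siGABP arrays matched their label in the level of Gabpa, while Gabpb1 went the other way. Gabpa, the DNA-binding subunit of GABP, had an intensity of 202 in siCtrl untreated cells and 318 in siCtrl KLA cells, where the siGABP arrays had 127 and 157, a log2 difference of -1.02 over both states (limma, adjusted p = 0.000211). Gabpb1, its partner subunit, was higher with siGABP by a log2 of 0.97 (limma, adjusted p = 0.000155). Of the MLL family genes looked up, Kmt2b alone was found under its symbol and differed by -0.07 with siMLL (limma, adjusted p = 0.712), so the siMLL arrays have no such check here. All 6 macrophage markers found on the array lay above the array median, from 173 for Itgam to 30921 for Lyz2. Above that median were also 0 of 1 B cell, 1 of 4 T and NK cell, 1 of 4 neutrophil, 1 of 5 mast cell and eosinophil and 3 of 4 mesothelial markers. Correlations of log2 values were 0.996 to 0.998 among the siMLL untreated arrays, 0.987 to 0.994 between siRNAs in one KLA state and 0.905 to 0.927 between KLA states.

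Stretches of 120 bases before the transcription start of a few members are shown first, because some members' promoters shared letters. They are RefSeq sequences of GRCm38.p6, written 5′ to 3′ along the gene. In Zfp263 (chr16:3743979-3744098, + strand), the brightest member, and Zfp655 (chr5:145231622-145231741, + strand), capitals mark CCGGAAG, a motif of the ETS family to which GABP belongs. In Zfp180 (chr7:24081777-24081896, + strand) and Zfp692 (chr11:58306949-58307068, + strand), they mark, on either strand, the 12-base motif bound by the zinc finger protein ZNF143 in human cells. Zfp606 (chr7:12478185-12478304, + strand) held both in the stretch shown. Zfp180 also held CCGGAAG, but past its start and so outside the printed bases. Zfp367 (chr13:64152374-64152493, - strand), the member lowest with siGABP relative to siCtrl, held neither in this stretch, which precedes one of its listed starts.
Zfp263: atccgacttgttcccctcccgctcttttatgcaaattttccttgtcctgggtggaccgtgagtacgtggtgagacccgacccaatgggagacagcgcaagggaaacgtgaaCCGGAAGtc
Zfp655: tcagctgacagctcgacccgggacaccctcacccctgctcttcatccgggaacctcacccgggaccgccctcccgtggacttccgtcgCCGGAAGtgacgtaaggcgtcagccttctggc
Zfp180: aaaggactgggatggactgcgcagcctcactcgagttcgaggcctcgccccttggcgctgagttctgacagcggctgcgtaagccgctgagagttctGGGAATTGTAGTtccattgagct
Zfp692: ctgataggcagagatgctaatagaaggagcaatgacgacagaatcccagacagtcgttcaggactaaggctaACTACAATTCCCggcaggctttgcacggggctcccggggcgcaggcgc
Zfp606: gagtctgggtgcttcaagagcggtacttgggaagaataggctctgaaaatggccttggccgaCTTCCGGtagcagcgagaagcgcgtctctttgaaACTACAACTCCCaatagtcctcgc
Zfp367: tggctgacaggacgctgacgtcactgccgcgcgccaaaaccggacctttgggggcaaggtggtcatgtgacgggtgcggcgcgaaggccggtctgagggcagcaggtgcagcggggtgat

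Promoters of 300 bases, 250 before and 50 after a start, were found for 104 of the 129 members. CCGGAAG, searched on both strands, was present for 23 of these 104 genes (22.1%), against 12.9% of 17492 protein-coding genes and 9.93% of all 27025 genes of the same table. By KLA call, it was held by 3 of 13 members higher with KLA, 10 of 46 lower and 10 of 45 not called. The ZNF143 motif, with any base allowed at its eighth position, was present for 8 members (7.69%) against 1.6% of protein-coding genes. This motif was picked out after 14 patterns beside CCGGAAG had been looked at, itself and an overlapping shorter and looser form among them. Over all 15 patterns the share in members was above that in protein-coding genes for 12 and below it for 3, among them TATAAA with 7.69% against 14.8%. Of the 132 member promoters, 2 held both CCGGAAG and the ZNF143 motif, and in none did the matches overlap. The shares in protein-coding genes and in all genes took in genes at any level, whereas members were chosen by level. Whether level bears on these gaps was not tested. A match describes the letters only.

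The members were dim as a group. Their median intensity was 181, and 96 of the 129 lay at or under 279, 2 times the threshold. Zfp263, a SCAN and KRAB zinc finger protein, was the brightest with a mean of 2030 over the 8 arrays. It was followed by Zfp131, a BTB zinc finger protein, with 1211 and by Zfp638, a nuclear protein that silences unintegrated retroviral DNA, with 1019. Zfp639 had 971, Zfp637 had 861, Zfp655, which binds the signalling protein Vav1, had 791, Zfp710 had 745 and Zfp513 had 702. Each intensity belongs to a different probe, so the order of these means is not an order of RNA amounts. Just inside the threshold were Zfp146 with 140.4, Zfp954 with 140.6 and Zfp879 with 141.6, and just outside were Zfp52 and Zfp169 with 137.3 and Zfp423 with 137.0. By their group means, 119 members exceeded the threshold in both KLA states, 8 only in untreated cells and 2 only with KLA.

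**Figure D1:**
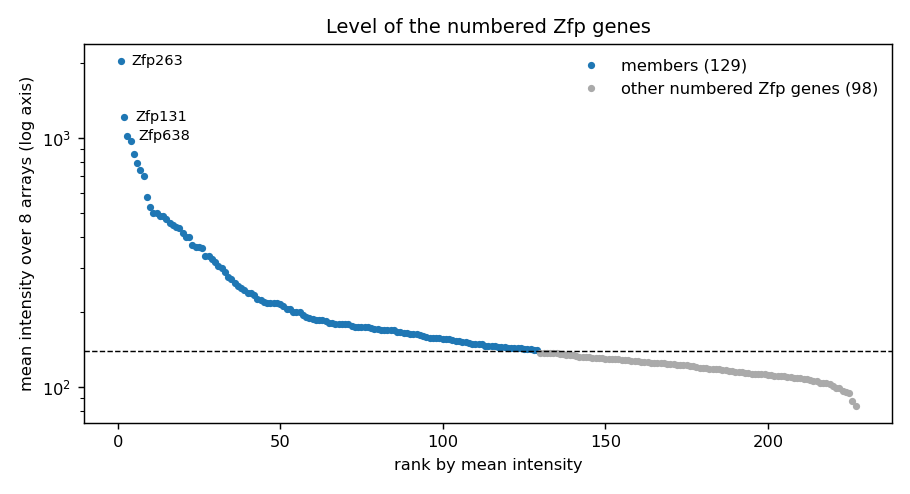
Mean deposited intensity over 8 arrays (log axis) of the 227 numbered Zfp genes by rank, 129 members in blue and the other 98 in grey, with the threshold of 139.5 dashed. The 3 brightest members are labelled, and 96 of 129 members lie at or under 279.

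KLA lowered more members than it raised. All 129 entered the fit, and 57 were lower and 15 higher with KLA at an adjusted p under 0.05 (limma, additive model over siRNA and KLA, adjusted over 8793 genes), while 57 were not called. The background was broad: 56.8% of all genes tested were called, 36.8% lower and 20% higher. Members called in either direction made up 55.8%, those lower 44.2% and those higher 11.6%, so the share called was near the background, with the lower share above it and the higher share below it. The median log2 response was -0.11 over members and -0.04 over all genes tested. Of 72 called members, 14 changed by 1.5-fold or more, against 1655 of 4998 among all genes. These shares were not matched for level, and folds of dim genes are understated. Up to 2 times the threshold lay 96 of the 129 members and 4358 of the 8793 genes.

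**Figure D2:**
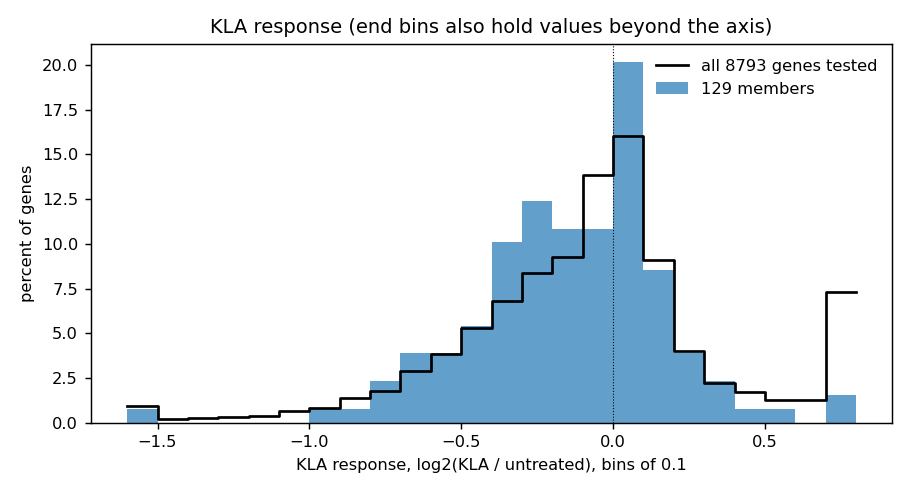
Percent of genes by log2 KLA response in bins of 0.1, for the 129 members (bars) and all 8793 genes tested (line). The end bins also hold values beyond the axis, which are 70 genes below and 551 above among all genes and none among members.

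Level and filter bear on these counts. Of the 96 members up to 2 times the threshold, 6 were higher and 38 lower (45.8% called). Of all 4358 genes tested in that range, 631 were higher and 993 lower (37.3% called). Of the 33 brighter members, 9 were higher and 19 lower (84.8% called). Of all 4435 brighter genes, 1127 were higher and 2247 lower (76.1% called). Among the 119 members over the threshold in both KLA states, 13 were higher and 51 lower (53.8% called). Of all genes tested, which were not filtered in that way, 56.8% were called. Fitted without a filter, the 98 numbered Zfp genes under the threshold gave 1 higher and 10 lower (11.2%), against 31% called among all genes in that fit. That 31% also took in the brighter genes, so these shares were not matched for level. Counted directly on deposited intensities, all 3 KLA arrays lay below all 5 untreated arrays for 52 members and above them for 12, and the ranges overlapped for 65. Of all genes tested, 47.3% did not overlap, 29.8% lying below and 17.5% above.

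The largest fall was that of Zfp704. Its intensity was 581, 609 and 591 in the siMLL untreated arrays, 462 in siCtrl untreated and 476 in siGABP untreated cells, and 185, 218 and 187 in siCtrl, siMLL and siGABP cells with KLA. All KLA values lay far below the untreated ones, a 2.92-fold fall (log2 -1.55 ± 0.05 SE, limma, adjusted p = 5.73e-10). Zfp318, which in B cells controls the readthrough that yields IgD, had 530, 499 and 530 in siMLL, 531 in siCtrl and 522 in siGABP untreated cells, and 269, 292 and 289 in siCtrl, siMLL and siGABP cells with KLA. These groups were tight and separate, and the fall was 1.95-fold (log2 -0.96 ± 0.06 SE, limma, adjusted p = 6.09e-08).

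Further falls were those of Zfp638, Zfp655 and Zfp219. Zfp638 ranged from 1110 to 1216 untreated and from 704 to 800 with KLA, a fall of 0.67 on the log2 scale. Zfp655 ranged from 851 to 971 and from 508 to 584, a fall of 0.77. Zfp219, a partner of Sox9 in cartilage, ranged from 442 to 475 and from 250 to 320, a fall of 0.70. In none of them did the KLA arrays reach the untreated arrays. Zfp637 fell by 0.77, Zfp12 by 0.67 and Zfp532, which joins a complex with Zmynd8, by 0.66, also without overlap.

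Among the rises, Zfp281, a GC-box factor of the pluripotency network in embryonic stem cells, came first. Its intensity was 426, 416 and 440 in siMLL, 448 in siCtrl and 424 in siGABP untreated cells, and 712, 677 and 684 in siCtrl, siMLL and siGABP cells with KLA. The KLA arrays were all higher, by 1.64-fold (log2 0.72 ± 0.05 SE, limma, adjusted p = 3.88e-07). Zfp263 had 1653, 1411 and 1667 in siMLL, 1816 in siCtrl and 1618 in siGABP untreated cells, and 2911, 2658 and 2506 in siCtrl, siMLL and siGABP cells with KLA. It too was separate, with a rise of 1.64-fold (log2 0.71 ± 0.07 SE, limma, adjusted p = 3.91e-06). Zfp513 ranged from 539 to 638 untreated and from 822 to 1020 with KLA, a log2 rise of 0.59. A second, dimmer Zfp513 probe rose by 0.29 and was also called (limma, adjusted p = 0.00187).

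The other rises were smaller. Zfp131 rose by 0.47 and Zfp516, a factor of brown fat that binds the Ucp1 promoter, by 0.38. Zfp598, the ubiquitin ligase that marks collided ribosomes, rose by 0.30, from 177 to 195 untreated to 217 to 233 with KLA. Zfp207, which assists spindle checkpoint protein Bub3, and Zfp710 both rose by 0.30, and the RNA-binding Zfp106 rose by 0.31 although its ranges overlapped (370 to 485 and 457 to 550). Zfp296 rose by 0.29 with overlap (138 to 177 and 165 to 196), and its adjusted p passed 0.05 when any one of the siCtrl untreated, siCtrl KLA, siGABP untreated or siGABP KLA arrays was left out (0.102 to 0.118 by limma). Zfp710 lost its call without the siMLL KLA array (limma, adjusted p = 0.052). Zfp319 was called higher by 0.36 but was the 1 called member of 72 whose direction differed between siRNA groups, and it was not called without siCtrl untreated (limma, adjusted p = 0.0782).

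**Figure D3:**
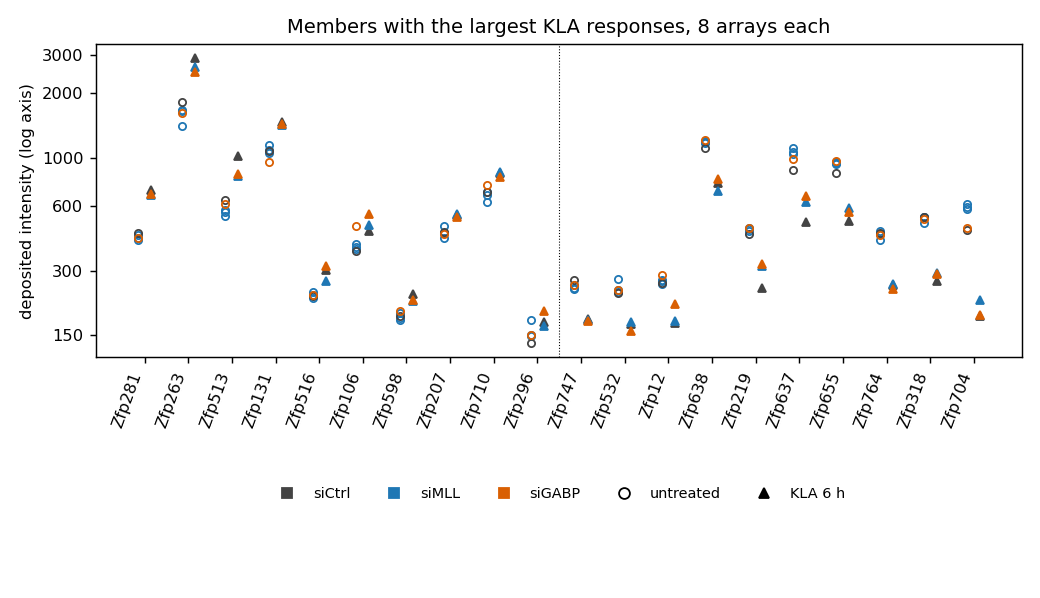
Deposited intensity (log axis) of the 10 called members with the largest rises (left) and the 10 with the largest falls (right) among those with one direction in all siRNA groups, which leaves out Zfp319, 1 point per array, colour for siRNA, open circles untreated and filled triangles KLA. Triangles lie apart from circles for all members shown but Zfp106 and Zfp296.

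Lists of zinc finger proteins by kind held few genes. Of 7 measured zinc finger proteins listed as acting on RNA or ribosomes, 2 were higher (Zfp106 and Zfp598) and 3 lower (Zfp638, Zfp326 and Zfp385a, whose symbol ends in a letter and which is not a member), with a median of -0.17. Zfp385a was not called with the mean of its probes (log2 -0.14, limma, adjusted p = 0.0837). Zfp326 was not called without siCtrl untreated, siCtrl KLA or siMLL KLA (limma, adjusted p 0.0831 to 0.113). Of 7 listed as parts of chromatin complexes, 2 were higher (Zfp281 and Zfp516), none was lower and the median was 0.10. Over all genes tested, 20% were higher and 36.8% lower, with a median of -0.04. Zfp451, a SUMO ligase, was lower by a log2 of -0.40. Zfp36, the mRNA decay factor tristetraprolin, was not analysed here.

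Genes that work with KRAB proteins, or that share their fingers, were looked at beside the members, and their shares are to be read against the 20% higher and 36.8% lower over all genes. Of 14 tested KRAB corepressor genes, 5 were lower (35.7%) and 1 higher (7.14%) with KLA, with a median log2 of -0.07. The maintenance DNA methyltransferase Dnmt1 was lower by -1.98, the heterochromatin protein gene Cbx3 by -1.06 and the histone methyltransferase Setdb1 by -0.57, while Hdac1 was higher by 0.52. Trim28, the common partner, differed by -0.04 and was not called, and its sign changed without the siMLL KLA array. Of 17 Zbtb genes, which pair fingers with a BTB domain, 5 were higher (29.4%) and 7 lower (41.2%), from Zbtb18 at -0.998 to Zbtb5 at 1.83. Of 9 Zscan and Zkscan genes, 2 were higher (22.2%) and 4 lower (44.4%). Of 14 mRNA decay genes, 8 were higher (57.1%) and 2 lower (14.3%), with a median of 0.32. Zc3h12a, an endonuclease that cuts cytokine mRNAs, was higher by 1.58, and Zfp36l1, a tristetraprolin relative, was lower by -0.35.

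Members that are next to each other in the RefSeq gene order of GRCm38.p6 formed 13 runs with 31 members in all. Of these 31, 16 were lower and 1 higher with KLA (54.8% called, against 56.8% of all genes). By direction, 36.8% of all genes were lower and 20% higher, and 44.2% and 11.6% of all members. Only the run of Zfp516, the 1 member called higher, could have held calls in both directions, and its other member Zfp236 was not called. In 3 runs every member was lower: Zfp692 with Zfp672, Zfp623 with Zfp707, and Zfp768 with Zfp747 and Zfp764. The call of Zfp768 was lost without siCtrl untreated, siCtrl KLA or siMLL KLA (limma, adjusted p 0.103 to 0.12). Chromosome 7 carried 34 members, 2 higher and 14 lower, to be read against the same 36.8% lower and 20% higher over all genes.

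**Figure D4:**
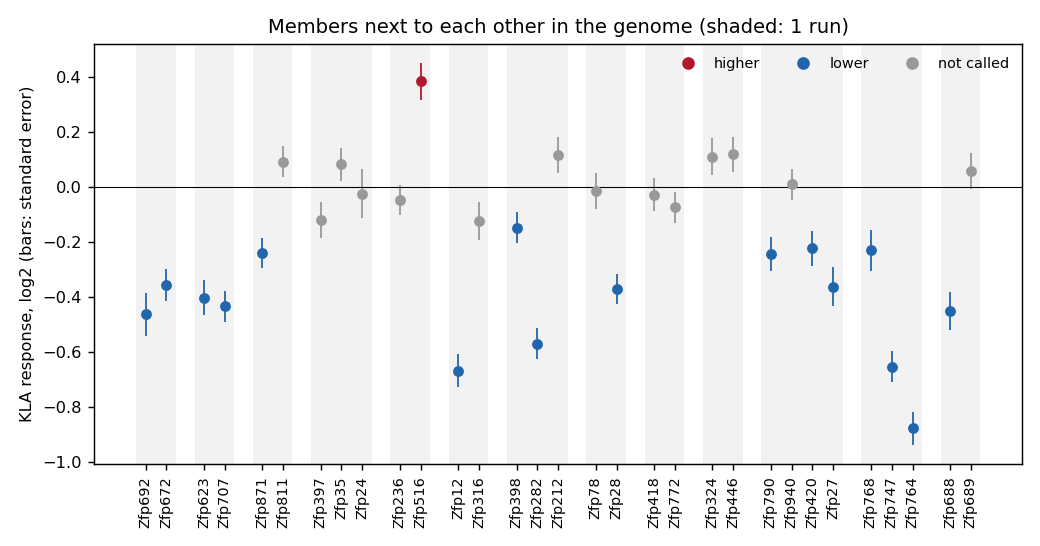
Log2 KLA response of the 31 members in 13 runs of adjacent genes (shaded), with standard errors, coloured by call. None of the 16 members called lower is in the run of Zfp516, the 1 member called higher.

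The run with the largest falls held a duplicated sequence. Among all pairs of different members with promoters, 1 pair shared a run of 20 or more bases before the start, namely Zfp747 (chr7:127376051-127376170, - strand) and Zfp764 (chr7:127406823-127406942, - strand). Over the 250 bases before each start, more than the positions given here, their longest shared run was 46 bases. Aligned over those 250 bases without gaps at a shift of 7 bases, they were identical at 219 of 243 positions (90.1%). The 120 bases before each start are shown because both genes fell, and capitals mark their longest shared run there, of 40 bases.
Zfp747: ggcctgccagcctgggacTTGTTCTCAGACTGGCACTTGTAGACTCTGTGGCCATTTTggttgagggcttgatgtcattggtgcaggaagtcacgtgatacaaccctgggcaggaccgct
Zfp764: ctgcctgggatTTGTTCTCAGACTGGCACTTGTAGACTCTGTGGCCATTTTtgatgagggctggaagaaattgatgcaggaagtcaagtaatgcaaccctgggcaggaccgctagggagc

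Zfp764 had 446, 415 and 460 in siMLL, 448 in siCtrl and 440 in siGABP untreated cells, and 257, 260 and 247 in siCtrl, siMLL and siGABP cells with KLA. Zfp747 had 248, 247 and 257 in siMLL, 271 in siCtrl and 257 in siGABP untreated cells, and 178, 176 and 175 with KLA in the same order of siRNAs. Both were lower on every KLA array, Zfp764 by 1.84-fold (log2 -0.88 ± 0.06 SE, limma, adjusted p = 1.59e-07) and Zfp747 by 1.57-fold (log2 -0.65 ± 0.06 SE, limma, adjusted p = 1.05e-06). Whether the probes tell these similar genes apart was not tested. Their neighbour Zfp768 was lower by -0.23, with ranges that overlapped (162 to 189 and 145 to 171).

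Probes of one member did not always move alike. Of 15 members with several probes past the filter, 12 had KLA responses of the same sign on all of them, and 8 had siMLL and 8 had siGABP differences of the same sign. Zfp933 had probes called in opposite directions, at -0.19, -0.32 and 0.25. The lower calls of Zfp933 and other members with several probes are those of the brightest probe.

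The siRNAs moved few members. With siMLL, 4 members were higher and 1 lower (3.88% called), against 6.94% of all genes, of which 4.26% were higher and 2.67% lower. With siGABP, 3 were higher and 6 lower (6.98% called), against 11.3% of all genes, 5.81% higher and 5.47% lower. Both contrasts use the same 2 siCtrl arrays. At an unadjusted p under 0.05, 21 and 29 of 129 members passed, against 1966 and 2334 of the 8793 genes. The median difference was 0.02 with siMLL and 0.01 with siGABP, against -0.0037 and -0.01 over all genes. The siMLL count was 0 without the siCtrl untreated array and 2 without siMLL untreated replicate 1 or replicate 3, siCtrl KLA or siMLL KLA. The siGABP count was 5 without siCtrl untreated, 2 without siCtrl KLA and 3 without siGABP KLA. Of 3 mesothelial markers tested, 2 were also called lower with each siRNA, while Msln was not, at -0.13 with siMLL and -0.12 with siGABP. Upk3b and Wt1 were lower by -0.43 and -0.35 with siMLL and by -0.48 and -0.42 with siGABP. Their part in the siRNA differences of members was not tested. Without siCtrl untreated, neither was called with siMLL (limma, adjusted p 0.127 and 0.168) and Wt1 was not called with siGABP (0.0536), nor was it without siGABP KLA (0.0512).

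Zfp367, an erythroid globin gene activator in human cells, was lower with both siRNAs. Its intensity was 519 in siCtrl, 350 in siGABP and 383, 386 and 408 in siMLL untreated cells, and 342 in siCtrl, 242 in siGABP and 288 in siMLL cells with KLA. The siCtrl array was the highest in each KLA state. The log2 difference was -0.59 ± 0.08 SE with siGABP (limma, adjusted p = 0.00124) and -0.38 ± 0.07 SE with siMLL (limma, adjusted p = 0.00912). The siMLL call was lost without the siCtrl untreated array (limma, adjusted p = 0.134).

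Zfp871 and Zfp410 were lower with siGABP. Without KLA, Zfp871 had 256 in siGABP, 346 in siCtrl and 325 to 340 in siMLL cells, and with KLA 230, 285 and 288 in the same order, so siGABP was lowest in each state (log2 -0.42 ± 0.07 SE, limma, adjusted p = 0.00494). Zfp410, an activator of the NuRD gene Chd4, had 227 in siCtrl, 196 in siGABP and 215 to 222 in siMLL untreated cells, and 249, 180 and 235 with KLA in the same order, and with siGABP was again lowest in each state (log2 -0.41 ± 0.09 SE, limma, adjusted p = 0.0145). The Zfp410 call was lost without siCtrl KLA (limma, adjusted p = 0.161) or siGABP KLA (limma, adjusted p = 0.183). A second Zfp410 probe, nearly as bright, differed by -0.26 with siGABP and was not called (limma, adjusted p = 0.0765). Zfp644, a partner of the methyltransferase G9a, was lower by -0.33, Zfp146 by -0.28 and Zfp407 by -0.28. Zfp644 lost its call without any one siCtrl or siGABP array (limma, adjusted p 0.0661 to 0.142) and with the mean of its probes (log2 -0.18, limma, adjusted p = 0.115). Its second probe differed by -0.04 (limma, adjusted p = 0.842). Zfp146 lost it without siMLL untreated replicate 1 or replicate 3, siMLL KLA, siCtrl KLA or either siGABP array (limma, adjusted p 0.0516 to 0.171). Zfp407 lost it without siMLL untreated replicate 1 or replicate 3, siMLL KLA, either siCtrl array or siGABP KLA (limma, adjusted p 0.062 to 0.384). The calls of Zfp367 and Zfp871 with siGABP held whichever array was left out.

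Higher values were seen for Zfp637 and Zfp180 with both siRNAs. Zfp637 had 885 in siCtrl, 988 in siGABP and 1046 to 1114 in siMLL untreated cells, and 502, 666 and 622 in siCtrl, siGABP and siMLL cells with KLA. The siCtrl array was the lowest in each state, and the log2 difference was 0.32 with siMLL and 0.30 with siGABP. Zfp180 had 345 in siCtrl, 434 in siGABP and 398 to 417 in siMLL untreated cells, and 348, 409 and 433 with KLA in siCtrl, siGABP and siMLL cells. It was higher by 0.28 with siMLL and by 0.31 with siGABP. Zfp106 was higher with siGABP (log2 0.36, and 0.17 on a second, dimmer probe that was not called), Zfp704 with siMLL (0.35) and Zfp467, which acts in the choice between bone and fat cells, with siMLL (0.26). All of these but Zfp467 were called at an adjusted p of 0.0098 to 0.0443, and Zfp467 had 0.0453 (limma). None held in every fit with 1 array left out. Zfp704 lost its siMLL call without siCtrl untreated (limma, adjusted p = 0.126). Zfp637, Zfp467 and Zfp180 lost theirs without siMLL untreated replicate 1 or replicate 3, siMLL KLA or either siCtrl array, and Zfp180 also without replicate 2 (limma, adjusted p 0.0509 to 0.218). With siGABP, Zfp106 lost its call without either siCtrl array or siGABP untreated (limma, adjusted p 0.0709 to 0.0931). Zfp180 lost it without siMLL untreated replicate 3 or any siCtrl or siGABP array, and Zfp637 without siMLL untreated replicate 1 or replicate 3, siMLL KLA, either siCtrl array or siGABP KLA (limma, adjusted p 0.053 to 0.397).

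**Figure D5:**
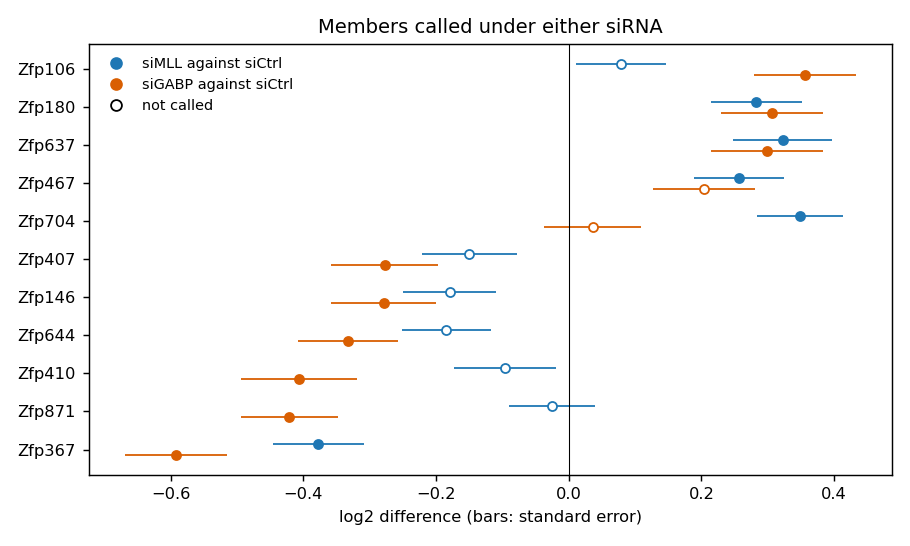
Log2 difference from siCtrl, with standard errors, of the 11 members called with siMLL (blue) or siGABP (orange), open where not called. Zfp367 is lowest, at -0.59 with siGABP and -0.38 with siMLL, and both contrasts share the siCtrl arrays.

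Among the 7 members called with siGABP that had promoters, 1 held CCGGAAG, Zfp180, and among the 4 that were lower none did. The 23 members with the motif had a median siGABP difference of 0.05 and the 81 without it of 0.00.

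No member's KLA response differed between siRNAs at an adjusted p under 0.05. With limma on a mean per group, 0 of 129 members were called for siMLL and 0 for siGABP, against 0.0114% of all genes (1 of 8793) in each. At an unadjusted p under 0.05, 9 and 5 members passed, against 640 and 747 of all genes. The standard error of such a difference was 0.13 for siMLL and 0.15 for siGABP at the median member, and the spread came from the siMLL untreated arrays alone. For scale, the median size of the called KLA responses of members was 0.36.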

How the data were processed

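The intensity values that the authors deposited, on a linear scale, come from BeadStudio 1.5.1.3 per the submitters' processing notes. Their sorted values were the same on all 8 arrays, as quantile normalization leaves them, so changes are relative to other genes. A second deposited table has 16 columns that match no label and was not used. Intensities were background-corrected (normexp, offset 50), quantile normalized and put on the log2 scale with limma 3.58.1 in R 4.3.3. The 11989 probes with a mean above the median (log2 6.73) were kept, and 8793 genes were tested on their brightest probe. Background and offset remain in both terms of a ratio, so folds of dim genes are understated. Additive fits had 4 residual degrees of freedom and fits of a mean per group 2. Tests were two-sided with Benjamini-Hochberg adjustment over all genes.

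Members and lists were chosen with earlier results of these data known. Named for KLA were the 10 largest called rises and falls with one direction in all siRNA groups, and for each siRNA the 5 largest each way with one direction in both KLA states. Others named are the brightest members, those near the threshold, list members and, chosen after their values were seen, Zfp319, Zfp407, Zfp606, Zfp692 and Zfp768. The fits were also run on simulated data with independent noise, which cannot show whether calls that rest on lone arrays would repeat. Zfp genes were matched to promoters and gene order by Entrez identifier. The number of arrays limits the precision, and no detection values were used, so members near the threshold may be at background.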

Additional observations from a re-analysis of the deposited data

How the results depend on the processing

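No paired analysis was possible because only the siMLL untreated group carries replicate numbers. The genes named for KLA, siMLL and siGABP kept their direction under all alternatives. The KLA difference of Trim28, not called, ran from -0.13 to 0.12 with 1 array left out. The count of members called with KLA was 72, and 59 to 69 when 1 array was left out. It was 28 of 33 with members above 2 times the array median, the membership itself falling from 129 to 33 by construction. The siMLL count of 5 became 2 without the filter on dim probes and 0 to 5 with 1 array left out. The siGABP count of 9 became 4 without the filter and 2 to 9 with 1 array left out. The arrays concerned are named with the results, and the cause was not tested. Both counts of changed KLA responses were 0 and stayed between 0 and 0 wherever they could be fitted, which excludes leaving out the lone arrays they need. Under all alternatives, 329 of 334 values of the 20 genes named for KLA kept direction and call, as did 58 of 84 of the 5 for siMLL and 98 of 132 of the 8 for siGABP, and the rest only lost the call. Of 448 values of other results for genes in the text, 424 kept direction and call, 21 lost the call, 2 gained it (Zfp639 with KLA) and 1 changed sign (Trim28). Without the filter, Zfp637 and Zfp180 with both siRNAs, Zfp467 with siMLL, and Zfp644, Zfp146 and Zfp407 with siGABP were not called (limma, adjusted p 0.0503 to 0.116). An alternative chosen after seeing the data, with only the 119 members above the threshold in both KLA states, gave 64 calls with KLA, 5 with siMLL and 8 with siGABP. A grouping of members by protein class was not run, because no protein sequences were used here.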
